A study of Mus musculus with 18 samples.

Results

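The immunoglobulin variable (V) segments of mouse prostate RNA were examined to see which segments carried the antibody RNA of each library, whether few or many did, and whether libraries shared them. The members were chosen by measured values: they are the genes whose symbols begin with Ighv, Igkv or Iglv and whose normalized counts summed to at least 10 over the 3 wild-type (WT) and 3 A537T libraries of 30-week-old mice. This left 85 of the 348 V genes among the 55469 genes of the tables, with 36 of 185 heavy chain genes, 47 of 160 kappa genes and 2 of 3 lambda genes. A further 193 V genes had no count in those 6 libraries. The same libraries thus served to choose the members, and the values of A537T against WT at 30 weeks are described without a test.

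The RNA was from prostate, ventral with lateral lobes, of C56NL/6N males aged 10 or 30 weeks, with 3 libraries in each of 6 groups. WT mice were ELAC2+/+. KO mice were ELAC2-/-, with Elac2 exon 8 removed by a Cre recombinase under the probasin (Pb) promoter, which acts in prostate epithelium, so immune cells were not the cells targeted. A537T mice were homozygous for ELAC2A537T in every cell of the body. Controls were littermates, each group was a single set of 3 mice, and the same WT libraries served both mutant lines at each age. Libraries are called here by their deposited names, which carry no replicate number. The WT libraries are 1AF, 2AF and 3AF at 30 weeks and 10AF, 11AF and 12AF at 10 weeks. KO libraries are 4AF, 5AF and 6AF at the older age and 13AF, 14AF and 15AF at the younger. The libraries 7AF, 8AF, 9AF (30 weeks) and 16AF, 17AF, 18AF (10 weeks) are A537T.

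An antibody is built from heavy chains and from kappa or lambda light chains. Each developing B cell joins a V segment to a J segment (and, in the heavy chain, a D segment) once per chain, and its descendants keep that choice. A spread of many V segments is therefore usual where many B cell clones contribute, and a V segment far above the others is seen where a few large clones, or many clones that prefer that segment, contribute. Ighv11-2 joined with Igkv14-126 is the textbook pair of B-1 cells that bind phosphatidylcholine. Plasma cells hold far more antibody RNA than resting B cells, and in tissue RNA more cells and more RNA per cell cannot be told apart. Reads per segment count RNA by segment and not clones. The 20 D and 14 J segments of the tables had 0 reads in all 18 libraries, so the joints that define a clone were not measured.

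The sequences of the leading segments show how separable they were from their closest relatives. The members' closest other V segment of the same chain had a median identity of 95% over up to 300 bases of the V exon (range 74.3% to 99%), and 8 of the 85 members had a relative at 98% or more. Reads of such relatives can be split by the quantification. The leaders of the A537T libraries are shown, each above its closest relative, as the last bases of the coding V exon in GENCODE vM21 on GRCm38, 5′ to 3′ on the coding strand. Capitals mark the bases that differ between the 2. Ighv11-2 lies at chr12:114048241-114048540 (reverse strand) and differed from Ighv11-1, at chr12:113981879-113982178, in 4 of 300 bases. Igkv14-126 lies at chr6:67896345-67896642 (forward strand) and differed from Igkv14-111, at chr6:68256572-68256869, in 27 of 298 bases. Ighv2-5 lies at chr12:113685482-113685781 (reverse strand) and differed from Ighv2-4, at chr12:113653291-113653590, in 7 of 300 bases.
Ighv11-2: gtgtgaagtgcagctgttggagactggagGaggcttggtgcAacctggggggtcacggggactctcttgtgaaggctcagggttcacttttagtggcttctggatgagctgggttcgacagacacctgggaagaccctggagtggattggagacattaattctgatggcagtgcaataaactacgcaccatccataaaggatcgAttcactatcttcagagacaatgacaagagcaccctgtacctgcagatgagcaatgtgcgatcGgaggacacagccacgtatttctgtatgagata
Ighv11-1: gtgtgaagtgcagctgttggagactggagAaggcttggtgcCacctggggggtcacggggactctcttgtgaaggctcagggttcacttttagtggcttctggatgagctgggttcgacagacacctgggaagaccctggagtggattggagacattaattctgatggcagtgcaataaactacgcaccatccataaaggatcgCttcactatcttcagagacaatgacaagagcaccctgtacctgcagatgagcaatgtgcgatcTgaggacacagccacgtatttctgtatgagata
Igkv14-126: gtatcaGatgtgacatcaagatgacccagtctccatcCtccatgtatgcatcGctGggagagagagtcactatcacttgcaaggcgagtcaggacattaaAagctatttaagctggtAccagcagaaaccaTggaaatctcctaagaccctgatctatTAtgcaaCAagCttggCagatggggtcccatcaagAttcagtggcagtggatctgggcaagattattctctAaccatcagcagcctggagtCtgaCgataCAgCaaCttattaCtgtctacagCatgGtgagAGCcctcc
Igkv14-111: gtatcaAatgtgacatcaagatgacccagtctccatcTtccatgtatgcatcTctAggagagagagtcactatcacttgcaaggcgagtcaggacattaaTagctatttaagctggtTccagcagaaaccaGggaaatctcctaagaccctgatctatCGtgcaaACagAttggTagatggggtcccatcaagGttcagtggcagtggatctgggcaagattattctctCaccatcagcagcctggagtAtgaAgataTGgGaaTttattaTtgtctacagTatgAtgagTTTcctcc
Ighv2-5: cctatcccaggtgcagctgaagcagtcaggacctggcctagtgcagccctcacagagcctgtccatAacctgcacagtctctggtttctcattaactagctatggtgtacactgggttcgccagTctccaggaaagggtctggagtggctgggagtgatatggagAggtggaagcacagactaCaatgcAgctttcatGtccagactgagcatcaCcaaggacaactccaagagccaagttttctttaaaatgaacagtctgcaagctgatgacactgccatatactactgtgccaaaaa
Ighv2-4: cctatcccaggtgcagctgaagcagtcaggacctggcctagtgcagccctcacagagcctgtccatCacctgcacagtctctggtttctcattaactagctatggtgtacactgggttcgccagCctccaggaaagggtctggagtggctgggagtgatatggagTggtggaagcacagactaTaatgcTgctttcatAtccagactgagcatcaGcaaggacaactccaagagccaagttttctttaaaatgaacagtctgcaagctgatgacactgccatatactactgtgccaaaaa
In the 3 A537T libraries at 30 weeks, Ighv11-2 had 495 reads beside 0 for Ighv11-1, and Ighv2-4 had 0 reads. Igkv14-111, itself a member, had 44 reads in those libraries.

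Libraries held 6569642 to 11225281 reads recovered from the normalized counts, and V reads were a very small part of them. Several libraries lay between the other 2 of their group over genes other than immunoglobulin genes. Among genes of at least 20 reads per 1000000 library reads (RPM) that differed at least 4-fold between the other 2 libraries, 7AF lay between 8AF and 9AF for 97.2% of 177 genes, 6AF between 4AF and 5AF for 98.6% of 213, 3AF between 1AF and 2AF for 93.8% of 65, and 17AF between 16AF and 18AF for 98.4% of 123. For the library of each other group that lay between most often the share was 69.0% of 29 genes (KO, 10 weeks) and 89.7% of 291 genes (WT, 10 weeks). The median weight of 8AF in 7AF was 0.231, with 0.171 to 0.310 as the middle 50% of genes. Seminal vesicle genes were high in 4AF, 6AF, 7AF and 9AF at 30 weeks, up to 91659 RPM in sum, and at most 3.26 in the other 30-week libraries. The counts of A537T against WT at 30 weeks are given with and without 7AF.

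V reads were most abundant in the A537T libraries at 30 weeks. The 85 members took 122, 257 and 70.1 RPM in 7AF, 8AF and 9AF. The WT libraries 1AF, 2AF and 3AF had 13.95, 25.4 and 19.2, and the KO libraries 4AF, 5AF and 6AF had 17.8, 14.5 and 11.9. All A537T libraries were above all WT libraries, with means of 150 ± 96.7 and 19.5 ± 5.71 RPM (SD, n = 3 each), while KO and WT overlapped. The difference of these means was 130 RPM, 144 without 7AF and 76.5 without 8AF. In reads, the A537T libraries had 1064, 2255 and 597, against 154 to 206 in WT and 97 to 163 in KO. The members held 93.4% to 95.9% of the reads of all 348 V genes in A537T and 84.4% to 89.1% in WT, but 67.8% to 79.9% in KO, whose libraries the rule did not use.

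**Figure D1:**
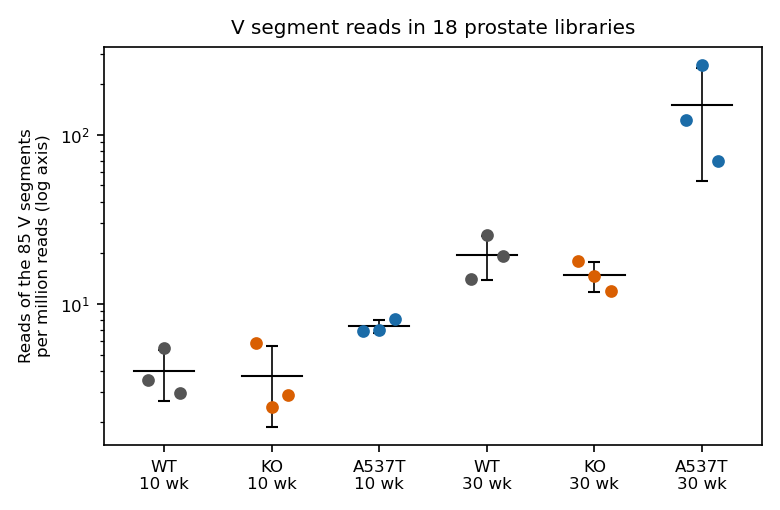
RPM (log axis) of the 85 V segments in each of the 18 libraries, by genotype and age. Points are libraries, horizontal lines are means and bars are SD (n = 3). The 3 A537T libraries at 30 weeks sit between 70.1 and 257, above the 6 other libraries of that age.

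Of the 85 members, 79 had a higher mean in A537T than in WT at 30 weeks and 6 a lower one. In 43 of them all 3 A537T libraries were above every WT library and in none were all below. Over all genes with a summed normalized count of at least 10 the shares were 9.05% above and 8.38% below, and nothing is read from this contrast, which chose the members. Without 7AF, 44 members were above and 1 (Igkv4-86) below, beside 11.7% and 11.5% of all genes, and 78 had a higher mean. A mean of 10 normalized counts or more was reached by 18 members, and their median log2 fold change, on the scale of log2(normalized count + 1), was 2.61 beside -0.01 over all genes, and 2.52 without 7AF.

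Ighv11-2, a heavy chain segment, led 2 of the 3 A537T libraries at 30 weeks. It had 106 reads in 7AF, 376 in 8AF and 13 in 9AF, beside 3, 4 and 5 in WT and 0, 4 and 1 in KO. In 8AF it took 45.5% of the 827 heavy chain V reads (95% Wilson interval 42.1% to 48.9%), in 7AF 24.2% of 438 (20.4% to 28.4%) and in 9AF 5.2% of 250 (3.06% to 8.69%). The intervals cover counting error only, so they describe each library and do not test the libraries against each other. Per kilobase of annotated exon, the scale used below to rank segments, its shares were 40.01%, 21.4% and 4.66%. Its known light chain partner Igkv14-126 followed the same order, with 248 reads in 8AF, 70 in 7AF and 5 in 9AF, beside 1, 2 and 2 in WT and 0, 4 and 1 in KO. Igkv14-126 led the kappa chain of 8AF with 19.3% of 1287 reads (17.2% to 21.5%), held 12.8% of 546 in 7AF (10.3% to 15.9%) and 1.67% of 299 in 9AF (0.716% to 3.85%).

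Other segments led 9AF. Ighv2-5 had 74 of its 250 heavy chain reads, which is 29.6% (24.3% to 35.5%), and 65 reads in 7AF. In 8AF it had 0 of 827 reads, which allows a share of up to 0.363%. Ighv5-4 had 34 reads in 9AF, 32 in 7AF and 1 in 8AF. Among kappa segments Igkv13-85 had 23, 15 and 0 reads in 9AF, 7AF and 8AF, and no read in any WT or KO library at 30 weeks. Igkv6-17 had 27, 25 and 5. These segments of 9AF were thus also found in 7AF and were scarce or absent in 8AF. Other leaders of 9AF were not: Ighv1-78 had 18 reads in 9AF and 32 in 8AF, and Igkv1-135 had 39 and 160. Seminal vesicle genes were also high in 7AF and 9AF and not in 8AF, and their part in this split was not tested.

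Igkv1-135, Igkv1-110 and the lambda segments were spread over all 3 A537T libraries. Igkv1-135 had 81, 160 and 39 reads in 7AF, 8AF and 9AF, beside 3, 3 and 1 in WT and 1 in each KO library. It led the kappa chain of 7AF and 9AF with 14.2% and 12.4% per kilobase. Igkv1-110 had 52, 121 and 24 reads, and it was also present in WT (30, 8 and 17) and KO (6, 11 and 2). Ighv1-53, with 14, 36 and 5 reads, and Ighv8-12, with 15, 32 and 3, ranked next after Ighv11-2 in 8AF per kilobase, with no more than 3 reads in any WT or KO library.

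**Figure D2:**
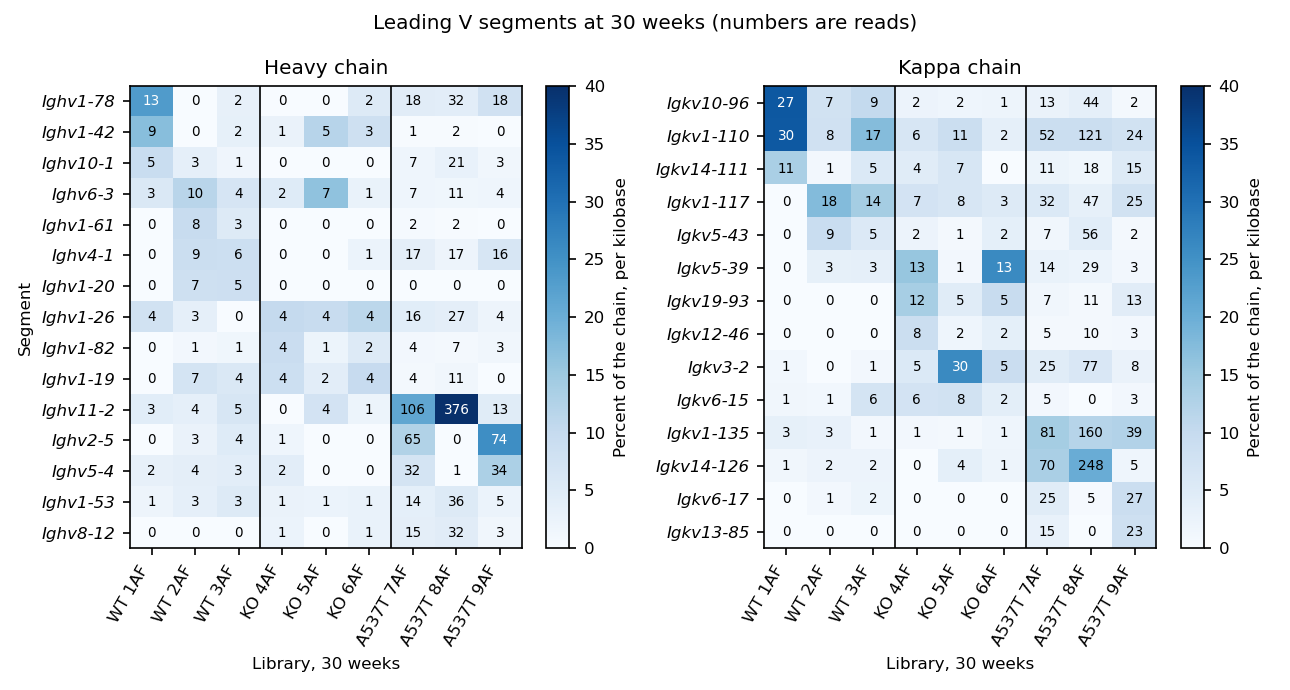
The 3 leading heavy and 3 leading kappa segments of each 30-week library (rows) in all 9 libraries (columns). Colour is the share of the chain per kilobase of exon, in percent, and numbers are reads. Within their own rows Ighv11-2 and Igkv14-126 are darkest in 8AF and Ighv2-5 in 9AF, while Igkv10-96 and Igkv1-110 are darkest in 1AF.

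Library 7AF held the leaders of both others. With the weight of 0.231 for 8AF taken from other genes, a weighted mean of 8AF and 9AF gave 96.8 reads of Ighv11-2 in a library of the size of 7AF (106 observed), 61.0 of Igkv14-126 (70 observed), 58.3 of Ighv2-5 (65 observed), 27.0 of Ighv5-4 (32 observed) and 18.1 of Igkv13-85 (15 observed). Over all members the weighted mean gave 990 reads and 1064 were observed. Of the 44 members that differed at least 4-fold between 8AF and 9AF with at least 10 reads in either, 42 lay between them in 7AF. Leaders shared by 7AF and either other library are therefore given with the values of 8AF against 9AF, which do not rest on 7AF. For the other libraries that lay between 2 of their group, the weighted mean over all members gave 139 reads for the 97 of 6AF, 196 for the 171 of 3AF and 66.5 for the 64 of 17AF. Few members differed at least 4-fold there, and 1 of 2, 4 of 4 and 3 of 3 lay between. Whether 7AF, 6AF, 3AF or 17AF hold RNA of more than 1 mouse was not tested. Every n = 3 and SD here takes the libraries as separate, as do segments shared within a group, such as Igkv5-39 in 4AF and 6AF.

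**Figure D3:**
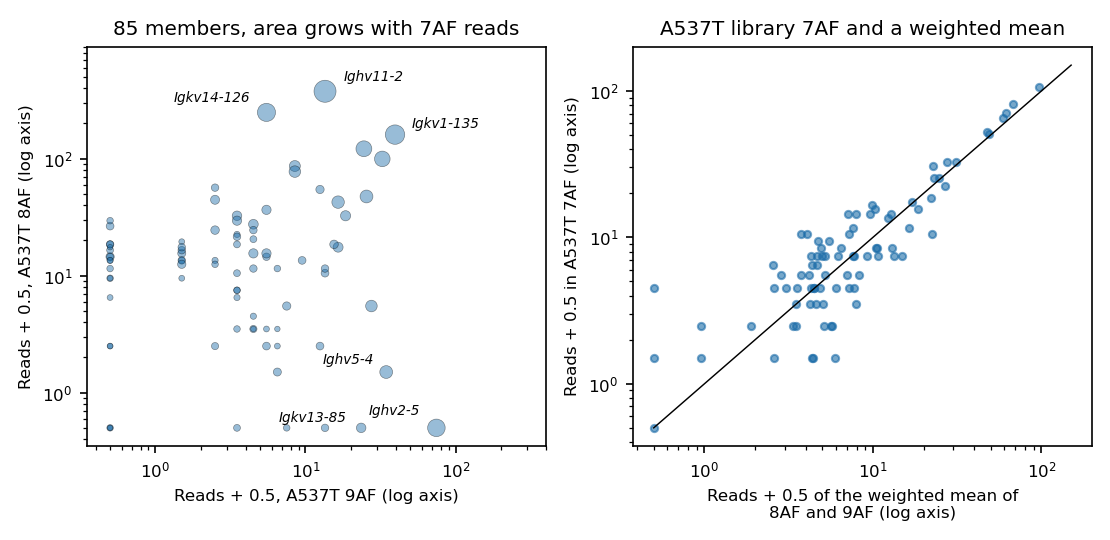
Left, reads + 0.5 of the 85 members in 9AF (x) and 8AF (y), both log axes, with points growing with the reads in 7AF. Right, reads + 0.5 in 7AF against those of the weighted mean of 8AF and 9AF, with the line of equality. Ighv11-2 and Igkv14-126 lie high on the left panel, Ighv2-5, Ighv5-4 and Igkv13-85 lie low and to the right, and all 5 lie near the line on the right panel.

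WT libraries had their own leaders. In 1AF, Ighv1-78 had 13 of 56 heavy chain reads (23.2%) and Igkv10-96 had 27 of 84 kappa reads (32.1%), with 30 reads of the slightly longer Igkv1-110 next to it per kilobase. In 2AF, Ighv6-3 had 10 of 91 and the closest relative of Igkv1-110, which differs from it in 10 of 300 bases, led kappa with 18 of 97. In 3AF, Ighv4-1 had 6 of 65 and Igkv1-110 had 17 of 93. Ighv1-20 was found in 2AF (7 reads) and 3AF (5 reads) and in no other library at 30 weeks. Ighv1-78 had 0 and 2 reads in 2AF and 3AF but 18, 32 and 18 in A537T.

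The first kappa member of each KO library was scarce in WT. The rule did not use KO libraries, so segments outside the members could lead there. Igkv5-39 had 13, 1 and 13 reads in 4AF, 5AF and 6AF, beside 0, 3 and 3 in WT. Igkv3-2 had 5, 30 and 5, beside 1, 0 and 1 in WT. After it in 5AF came Igkv1-110 with 11 reads and Igkv6-15 with 8. In WT Igkv1-110 had 30, 8 and 17 reads and Igkv6-15 had 1, 1 and 6. Igkv19-93 had 12, 5 and 5 and Igkv12-46 had 8, 2 and 2, both beside 0 in every WT library. Over all V segments, Igkv3-4, not a member, had 17, 0 and 9 reads, which placed it above Igkv5-39 in 4AF and next after it in 6AF. In the heavy chain Ighv1-26 had 4 reads in each KO library and was first among the members in 4AF and 6AF, and Ighv6-3 led 5AF with 7 of 44 reads. Ighv1-18, not a member, had 2, 0 and 5 reads and was above Ighv1-26 in 6AF, and Ighv1-59, not a member either, equalled it in 4AF with 4 reads. In WT and A537T libraries a member led both chains over all V segments too, which the rule favoured, since it chose members by their counts in those libraries. No heavy chain member passed 7 reads in a KO library, so the order of segments there rested on few reads.

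Counts of the segments needed to reach 50% of a chain, per kilobase, gave few for the heavy chain in every group. They were 4, 6 and 8 in WT, 6, 5 and 6 in KO and 6, 4 and 4 in A537T (7AF, 8AF, 9AF). For kappa they were 2, 6 and 5 in WT, 5, 5 and 4 in KO and 6, 5 and 6 in A537T. The groups overlapped in both chains. The fewest for the heavy chain were in 1AF, 8AF and 9AF, and for kappa in 1AF.

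The effective number of segments, the number of equally abundant segments that would give the same chance that 2 reads fall on the same segment, corrects for the number of reads. For the heavy chain it was 9.69, 18.7 and 26.7 in WT, 24.3, 15.2 and 28.7 in KO and 12.5, 5.70 and 9.68 in A537T. The A537T values overlapped the lowest WT library and were below all KO libraries. For kappa it was 4.13, 16.03 and 12.98 in WT, 14.8, 10.4 and 11.3 in KO and 16.6, 12.5 and 18.6 in A537T. At an equal number of 38 heavy chain reads, 13.3, 17.9 and 20.03 segments would be seen in WT, 19.2, 15.996 and 23 in KO and 17.1, 15.1 and 14.9 in A537T. At 53 kappa reads the numbers were 10.3, 20.9 and 18.5 in WT, 20.5, 19.0 and 20 in KO and 23.6, 20.5 and 22.3 in A537T. In A537T libraries 27 to 35 of the 36 heavy chain members and 37 to 47 of the 47 kappa members were read at least once. These counts came with a much higher number of reads and from libraries that served to choose the members, so nothing is read from them.

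**Figure D4:**
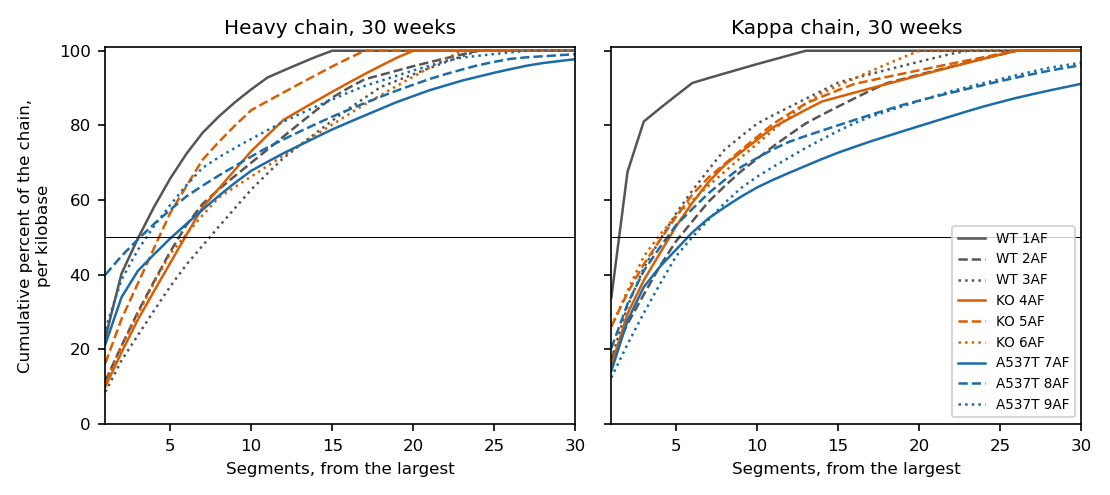
Cumulative share of the heavy (left) and kappa (right) chain, in percent per kilobase, against the number of segments counted from the largest, for the 9 libraries at 30 weeks. Colours are groups, and solid, dashed and dotted lines are the libraries of a group in the order of their names. The thin line marks 50%. 8AF starts highest in the heavy chain, at 40.01%, and 1AF rises fastest in kappa.

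By family, the Ighv1 group, the largest family of mouse heavy chain V segments, held from 39.5% up to 63.4% of the WT heavy chain per kilobase, from 39.1% up to 70.95% of that of KO, and 25.03% to 29.1% in A537T. The Ighv11 family, here Ighv11-2 alone, took 3.58% to 6.45% in WT, 0% to 7.21% in KO and 4.66% to 40.01% in A537T. When segments were summed by family, the difference between A537T and WT in the chance of a heavy chain match changed from 5.495 to -8.27 percentage points. Which group is called more concentrated thus depends on whether segments or families are counted.

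Most members were found in several libraries, and leaders were partly shared. Ighv11-2 led 7AF and 8AF, Igkv1-135 led 7AF and 9AF, and Ighv6-3 led 2AF (WT) and 5AF (KO), while Ighv2-5 led 9AF alone and had no read in 8AF. Of the 85 members, 6 had a read in all 9 libraries at 30 weeks (Ighv1-53, Ighv6-3, Igkv1-110, Igkv1-135, Igkv10-96 and Iglv1), 59 had a read in 5 or more, none was found in only 1, and the median was 6 libraries. The rule had removed segments that were scarce in the WT and A537T libraries, among them any found in KO alone. It thus favoured segments found in several libraries, as did 7AF, which held segments of both 8AF and 9AF, so nothing is read from these counts. A library held at least 50% of the summed RPM of 40 members, and in 32 of the 40 this was 8AF, the library with most V reads. It was 9AF for 4, 2AF for 2, and 3AF and 7AF for 1 each. Weighting each library alike, by its share of the chain, the count fell from 40 to 15, with none in 8AF. Ighv2-5 and Igkv13-85 in 9AF remained among the 15. Without 7AF the 40 became 61.

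Between libraries the leading segments were shared in part. The 5 leading heavy chain segments of 8AF and 9AF had 1 in common and the 5 leading kappa segments 2. 7AF shared 3 heavy chain and 3 kappa leaders with 8AF, and 3 and 4 with 9AF. 1AF shared none of its 5 heavy chain leaders with 2AF or 3AF, which shared 3 with each other. The median was 2 of 5 for both chains over the 9 pairs within a group, and 1 of 5 (heavy) and 2 of 5 (kappa) over the 27 pairs from different groups. The Morisita overlap, which is about 1 for the same mixture and 0 for none in common and can pass 1 through its correction for read number, was 0.217 between 8AF and 9AF for the heavy chain. The median for the heavy chain was 0.782 within groups (0.217 to 1.179) and 0.386 between groups (0.166 to 0.648), and for kappa 0.663 (0.372 to 0.989) and 0.406 (0.133 to 0.580). Pairs share libraries, so these are descriptions. Most pairs within a group include 7AF, 3AF or 6AF, which lay between the other libraries of their group for most genes compared. In the pairs without them, heavy chain overlap was 0.241 (1AF with 2AF), 0.849 (4AF with 5AF) and 0.217 (8AF with 9AF). The first and last of these were below the heavy chain median between groups. For kappa the values were 0.372, 0.586 and 0.543 in the same order. Nothing is therefore read from the higher medians within groups.

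Lambda chains were a minor part of light chain V reads in every library at 30 weeks. Iglv1 had 6, 12 and 9 reads in WT, 5, 2 and 6 in KO and 50, 99 and 32 in A537T at 30 weeks. Iglv2 had 8, 6 and 4 in WT, 2, 1 and 0 in KO and 30, 42 and 16 in A537T. These 2 segments differ in 8 of 300 bases. The lambda share of light chain V, per kilobase, was 14.1% ± 1.66 in WT and 6.43% ± 3.62 in KO (SD, n = 3 each), with all KO libraries below all WT libraries. The 2-sided exact permutation p was 0.1, the smallest that 3 against 3 allows, and 0.4 after adjustment over the 12 tests of this kind. In A537T the share was 12.0% ± 2.02.

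Constant region genes were counted beside the V segments. Ighm, the constant region of IgM, had 433, 611 and 605 reads in WT, 483, 632 and 443 in KO and 2458, 6021 and 1100 in A537T. It made up 95.1% of heavy chain constant region reads in 8AF, 83.2% in 7AF and 66.9% in 9AF. Ighg2c, of the IgG2c class, had 303, 48 and 365 reads in 7AF, 8AF and 9AF, which is 10.3%, 0.758% and 22.2%. Library 8AF, led by Ighv11-2, was thus the lowest of the 3 in Ighg2c and the highest in Ighm. Jchain, which links IgM and IgA into polymers, had 329, 624 and 199 reads in A537T beside 67 to 89 in WT. Of the 13 constant region and J chain genes, 10 reached a mean of 10 normalized counts over the WT and A537T libraries at 30 weeks. High A537T counts let some pass, such as Iglc3 with a mean of 0.99 in WT and 24.2 in A537T. All 10 had a higher mean in A537T, which this filter favours, so nothing is read from that count. Their median log2 fold change was 2.39 (normalized count + 1), beside -0.01 over all genes, and 2.44 without 7AF.

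Markers of B and plasma cells were sparse. Of 14 genes 12 to 14 had a read in each group, and their sum was 216 to 299 RPM at 30 weeks in A537T, 228 to 252 in WT and 222 to 267 in KO, most of it from Xbp1 and Derl3, which secretory epithelium also uses. By the same filter 6 could be fitted in A537T against WT at 30 weeks. Of these, 4 had a higher and 2 a lower mean, with a median log2 fold change of 0.21 (normalized count + 1). The 2 lower were Prdm1, a regulator of plasma cell identity, at -0.18 (SE 0.34) and Derl3 at -0.72 (SE 0.38). Mzb1, a chaperone of IgM secretion that was too low to fit, had 13, 23 and 11 reads in A537T, 0 to 4 in WT and 3 to 9 in KO. Pou2af1, a B cell coactivator and among the 4 higher at 2.44 (SE 0.92), had 15, 35 and 11 in A537T, 0 to 7 in WT and 3 to 16 in KO. Among genes of V segment recombination, Dntt, which adds bases at the joints, had 1 read over all 18 libraries. The lymph node list summed to 26.1 to 31.8 RPM in A537T, 17.995 to 31.4 in KO and 7.16 to 16.7 in WT, so both mutant groups were above WT in the sum. By the same filter 3 of its genes could be fitted. In KO against WT, mean normalized counts were 126 and 1.15 for Cr2, 93.2 and 79.8 for Ccl21a, and 20.4 and 26.4 for Cxcl13. In A537T against WT they were 85.7 and 0.765, 95.9 and 80.6, and 72.5 and 26.4. Cr2, with the largest difference of the 3, varied widely within each mutant group, with an SD of 98.7 in KO and 65.7 in A537T (n = 3 each). At 10 weeks its mean was 81.3 in KO and 22.7 in WT, and it had no read in A537T. A link of Cr2 with the seminal vesicle genes was not tested. Madcam1 was at 0 and Glycam1 at 1 read in each A537T library. T cell genes summed to between 5.38 and 8.56 RPM in A537T, between 4.27 and 5.35 in KO and between 2.47 and 4.26 in WT. The part of these cells in the V reads was not tested.

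In KO against WT at 30 weeks no member was called by limma on log2(normalized count + 1), where 0% of the 14729 genes tested were called. Igkv1-110 was the only member whose mean reached 10 normalized counts, with 16.7 ± 7.45 in WT and 5.93 ± 3.14 in KO (SD, n = 3 each). Its log2 fold change was -1.39 (SE 0.61, limma adjusted p = 0.462, unadjusted p = 0.0571). With no filter 78 members could be fitted, with 0 called and 15 at an unadjusted p under 0.05 (19.2%), 8 higher and 7 lower, beside 9.02% of all genes in the same fit. On recovered reads edgeR's filter kept none of the members, and DESeq2 tested 6, with 0 called and 2 at an unadjusted p under 0.05, beside 10.4% of all genes.

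At 30 weeks 9 members were higher in all KO than in all WT libraries and 6 were lower. Among the 35 members with a summed normalized count of at least 10 these were 4 (11.4%) and 5 (14.3%), beside 7.94% and 7.38% of all genes with that sum. The WT libraries of this comparison also served to choose the members, and the KO libraries did not. Igkv19-93, Igkv3-2 and Igkv12-46 were among the higher members. In the fit with no filter their log2 fold changes were 2.99 (SE 0.58), 2.76 (SE 0.66) and 2.16 (SE 0.61), with limma adjusted p of 0.319, 0.393 and 0.437. Igkv10-96, with 27, 7 and 9 reads in WT and 2, 2 and 1 in KO, had -2.26 (SE 0.58, limma adjusted p = 0.406). Ighv10-1 had 5, 3 and 1 reads in WT and 0 in every KO library. Seminal vesicle genes were also higher in 4AF and 6AF, at 85288 and 63218 RPM in sum, and at 0.713 in 5AF, where Igkv3-2 had most reads. V reads of the members were at 19.4 ± 5.76 RPM in WT and 14.8 ± 2.97 in KO (SD, n = 3 each, exact permutation p = 0.3, adjusted p = 0.667). This leaves out V genes under the threshold, which held a larger part of V reads in KO than in WT. Over all V genes the reads were 177, 244 and 192 in WT and 184, 204 and 143 in KO.

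The chance of a match in the KO and WT libraries at 30 weeks differed by less than their spread in both chains. For the heavy chain it was 4.73% ± 1.64 in KO and 6.33% ± 3.19 in WT (SD, n = 3 each, exact permutation p = 0.6), and without 1AF the difference turned from -1.60 to 0.185 percentage points. For kappa it was 8.43% ± 1.504 and 12.8% ± 9.94 (exact permutation p = 0.9), and without 1AF it turned from -4.33 to 1.40. Adjusted over the 12 tests these p were 0.72 and 0.9. The wide WT spread came with 1AF, where Igkv10-96 and Igkv1-110 held most kappa reads. Only members were counted here, and they held 67.8% to 79.9% of V reads in KO libraries and 84.4% to 89.1% in WT libraries. Leading KO segments outside the members, such as Igkv3-4, were left out.

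At 10 weeks V reads were few, with 17 to 64 per library. The members took 3.54, 5.47 and 2.96 RPM in WT, 5.89, 2.44 and 2.89 in KO and 6.91, 7.02 and 8.10 in A537T. All A537T libraries were above all WT libraries, by 3.39 RPM in the means (exact permutation p = 0.1, the smallest that 3 against 3 allows, adjusted p = 0.4), while KO overlapped WT (p = 0.7 by the same exact test, adjusted p = 0.764).

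Ighv11-2 led the heavy chain of all 3 WT libraries at 10 weeks and Igkv14-126 the kappa chain of 2, and both were scarce in the mutant lines. Ighv11-2 had 3 of 9, 12 of 24 and 11 of 15 heavy chain reads in 10AF, 11AF and 12AF. KO libraries had 1, 0 and 0 reads and A537T libraries 0, 3 and 2. Igkv14-126 had 5 of 17, 6 of 24 and 8 of 15 kappa reads in WT, where its closest relative Igkv14-111 led 10AF with 7 of 17, and it had 0 reads in every KO library and 0, 0 and 1 in A537T. Neither line overlapped WT in Igkv14-126 or, per normalized count, in Ighv11-2. In A537T at 30 weeks 7AF and 8AF were above WT in both segments, and the difference between the ages was not tested.

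Neither segment reached a mean normalized count of 10 in these comparisons. In the fit with no filter, KO against WT gave a log2 fold change of -2.72 (SE 0.61, limma adjusted p = 0.185) for Ighv11-2 and -2.78 (SE 0.45, limma adjusted p = 0.185) for Igkv14-126. A537T against the same WT libraries gave -1.81 (SE 0.71, limma adjusted p = 0.805) and -2.50 (SE 0.53, limma adjusted p = 0.761). These are on the log2(normalized count + 1) scale and understate the change of low genes. Skeletal muscle genes were also higher in the WT libraries at 10 weeks, at 10143 to 36118 RPM in sum. KO lay between 217 and 5395 and A537T between 3094 and 10567. Seminal vesicle genes summed to 65538 to 102936 RPM in KO, 8.08 to 46367 in WT and 374 to 1914 in A537T at 10 weeks. Prostate epithelium genes summed to 4366 to 38182 RPM in KO, 36587 to 133172 in WT and 78577 to 103323 in A537T. The part of these tissues in the result was not tested.

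**Figure D5:**
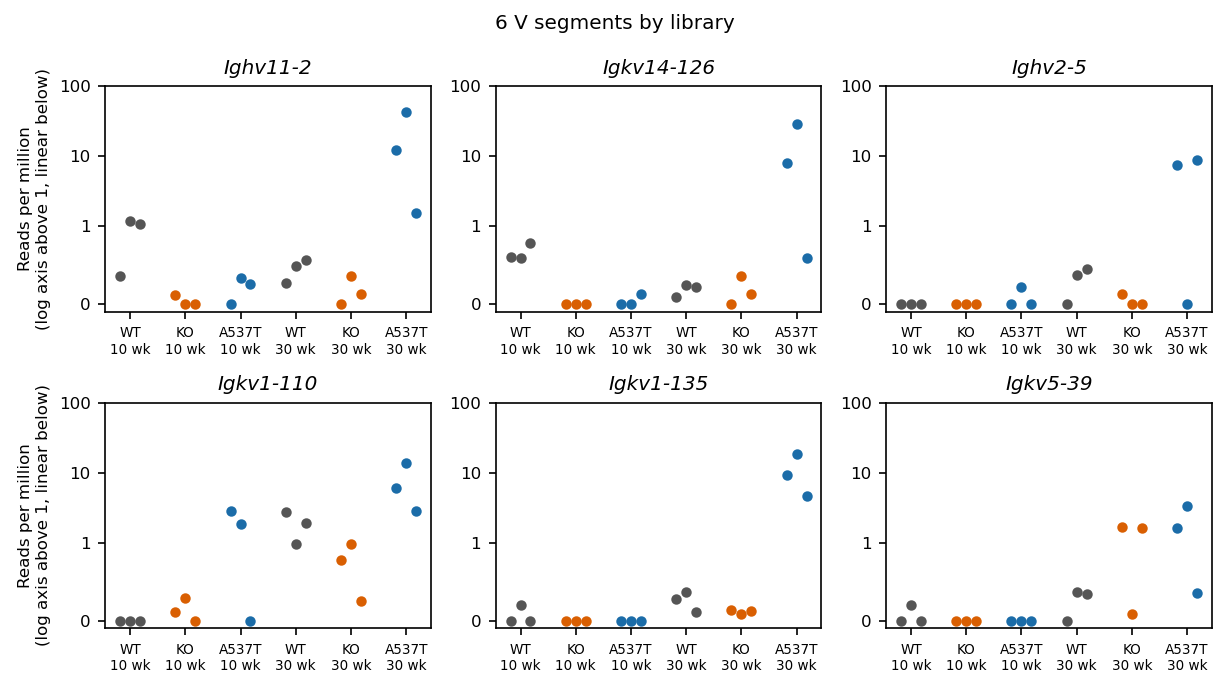
RPM of 6 V segments in the 18 libraries, by genotype and age (axis logarithmic above 1 and linear below). Points are libraries. Ighv11-2 and Igkv14-126 are above both mutant groups in WT at 10 weeks and are highest in 2 of the 3 A537T libraries at 30 weeks.

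No member reached a mean of 10 normalized counts in either comparison at 10 weeks, and the share of all genes called by limma was 0% in both. With no filter, 47 members in KO and 52 in A537T could be fitted, with 0 called and 5 (10.6%) and 8 (15.4%) at an unadjusted p under 0.05, beside 14.5% and 6.04% of all genes in the same fits. edgeR and DESeq2 on recovered reads gave none of the members an adjusted p at 10 weeks. In KO, 3 members were above all WT libraries and 2 below. Of the 4 with a summed normalized count of at least 10 these were 1 and 2, beside 11.1% and 12.4% of all genes. In A537T 3 were above and 2 below, and of 7 with that sum 1 and 2, beside 5.53% and 6.09% of all genes.

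Single segments led A537T libraries at 10 weeks as well. In 16AF Ighv1-78 had 14 of 22 heavy chain reads and Igkv1-110 had 24 of 36 kappa reads. In 17AF Igkv1-110 had 17 of 37, and in 18AF it had 0 and Igkv4-61 had 21 of 42. Igkv1-110 had 0 reads in every WT library and 1, 2 and 0 in KO at that age. Its log2 fold change in A537T was 2.94 (SE 1.11, limma adjusted p = 0.805), with 1 of 3 libraries at 0. Ighg2b had 40, 44 and 0 reads in 16AF, 17AF and 18AF, the libraries with and without Igkv1-110. In the weighted mean of 16AF and 18AF, Igkv1-110 had 17.5 reads for the 17 observed in 17AF, Ighv1-78 10.2 for 3, and Igkv4-61 8.06 for 6.

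Among the members, Iglv1 was higher in all KO than in all WT libraries at 10 weeks, with 4, 2 and 6 reads beside 2, 1 and 0 (log2 fold change 1.48, SE 0.60, limma adjusted p = 0.309). The lambda share was 26.4% ± 12.7 in KO, 13.2% ± 12.6 in WT and 3.33% ± 3.98 in A537T (SD, n = 3 each, exact permutation p = 0.4 for both lines, adjusted p = 0.667). It rested on 0 to 8 lambda reads per library. The chance of a heavy chain match was 2.74% ± 4.75 in KO and 26.2% ± 18.7 in WT (exact permutation p = 0.1, adjusted p = 0.4), with 4 to 18 heavy chain reads in KO and 9 to 24 in WT. In 14AF and 15AF no heavy chain segment had 2 reads.

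At the threshold of the rule the members just inside were Igkv3-7 (summed normalized count 10.2), Igkv6-25 (10.5) and Igkv4-55 (11.3), and the segments just outside were Igkv5-45 (9.77), Igkv4-72 (9.65) and Igkv10-94 (9.36). Igkv5-45 differs from the member Igkv5-43, with 9 reads in 2AF, in 3 of 298 bases, so their reads may be split between them. The same WT library in its 2 tables gave member reads that differed by at most 1 read, in at most 2 members.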

How the data were processed

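RNA-seq of 18 prostate libraries was analysed. The deposited values are gene-level signal: the authors trimmed reads (Trim Galore 0.4.1, cutadapt 1.18) and, per the methods and the submitters' processing notes, used STAR 2.7.3a and Salmon on GRCm38 with gene sums by tximport, then divided each library's counts by its DESeq2 1.26 size factor within a table of 6 libraries. Tables of the authors' own comparisons (log2 fold changes and s-values) were not used. The WT libraries appear in 2 tables at each age.

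Whole reads were recovered from the steps of the values (99.9% to 100% of values in a library came out whole, tolerance 0.01 reads), and 0 columns were left unused. Of 55469 gene IDs, 54450 matched GENCODE vM21 exactly and 55107 without the version, which gave symbols, exon lengths and sequences. Reads per kilobase of exon ranked segments within a chain. The chance that 2 reads fall on the same segment, in percent, was tested in place of its inverse, the effective number, which is undefined where no segment has 2 reads. Single values were compared by 2-sided exact permutation tests of 3 against 3 libraries (smallest p 0.1), adjusted by Benjamini-Hochberg over 12 tests. Genes were tested with limma 3.58.1 (trend) on log2(normalized count + 1) at a mean of at least 10, with adjusted p under 0.05, in R 4.3.3, with edgeR 4.0.16 and DESeq2 1.42.0 on recovered reads as alternatives, which called 0 and 698 genes in KO at 10 weeks, 0 and 90 in A537T at 10 weeks and 0 and 276 in KO at 30 weeks. The code was tested on simulated data. Intervals are 95% Wilson, and the limit for a share at 0 is 3 reads; both cover counting error only.

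Column names carry neither a group nor a replicate. Columns shared by both comparisons of an age were taken as WT. The others were taken as the mutant whose base means, as given by the authors, equal the gene means of that comparison. Nothing states that libraries of a group were prepared apart, so p-values measure the spread between these libraries. Named segments were the 3 leading heavy and 3 leading kappa segments of each 30-week library, the lambda segments, those at the threshold and the fixed gene lists. Others (Ighv11-1, Ighv2-4, Igkv5-45 as relatives, Igkv4-61, Igkv3-4, Ighv1-18 and Ighv1-59) and the leaders at 10 weeks were named after their values were seen. The members and lists were chosen with earlier results of these data known. Values of some list genes are not reported here.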

Additional observations from a re-analysis of the deposited data

Results flagged for a closer look

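Igkv10-96 moved in opposite directions in KO against WT at the 2 ages. At 10 weeks it had 3, 2 and 2 reads in KO and 0, 0 and 1 in WT, and at 30 weeks 2, 2 and 1 in KO and 27, 7 and 9 in WT, with no overlap at either age. The difference between the ages was not tested, and the values at 10 weeks are at most 3 reads.

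Igkv3-4, a kappa segment under the threshold of the rule and so outside the members, had 17, 0 and 9 reads in the KO libraries 4AF, 5AF and 6AF at 30 weeks. It had 1, 1 and 0 reads in WT and 1, 1 and 2 in A537T. It was high in the same 2 KO libraries as the seminal vesicle genes, whose part in it was not tested.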

How the results depend on the processing

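No paired analysis was possible because the columns carry no replicate numbers. Differences below are mutant minus WT, in RPM for V reads and in percentage points for the chance of a match and the lambda share. With all V segments, V reads in KO at 10 weeks turned from -0.247 to 0.609. With families in place of segments, the heavy chain match at 30 weeks turned from -1.60 to 4.52 (KO) and from 5.495 to -8.27 (A537T). With only segments of a summed normalized count of at least 100, the A537T differences at 30 weeks moved from 5.495 to 12.9 (heavy), from -6.24 to -19.9 (kappa) and from -2.05 to -6.54 (lambda), and kappa in A537T at 10 weeks turned from 9.44 to -0.762. That setting gave no value for the heavy chain in KO at 10 weeks. The count of members with at least 50% of their reads in 1 library was 40, and 15 by summed percent of the chain, a weighting chosen after seeing the data, as were edgeR, DESeq2, the values without 7AF and the leaders over all V segments. Counting reads in place of reads per kilobase, the other table for WT and every alternative of the limma fit changed no direction and no call.

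Leaving out 1 library at a time, V reads ranged from -1.32 to 0.495 (KO, 10 weeks; above 0 at 0.495 without 11AF, 0.403 without 14AF and 0.178 without 15AF), 2.84 to 4.15 (A537T, 10 weeks), -7.48 to -1.72 (KO, 30 weeks) and 76.5 to 170 (A537T, 30 weeks). The heavy chain match ranged from -31.8 to -13.3, -18.1 to 3.09 (without 12AF), -2.89 to 0.185 (without 1AF) and 2.701 to 7.47 in the same order. Kappa ranged from -18.2 to -8.48, 2.704 to 14.1, -7.59 to 1.40 (without 1AF) and -9.47 to -0.492. The lambda share ranged from 6.44 to 19.1, -16.5 to -3.92, -9.28 to -5.71 and -2.98 to -0.914. The count of 40 ranged from 35 to 61, the highest without 7AF, and members called stayed at 0. At 10 weeks 17 to 64 V reads per library limit every share, and 3 against 3 libraries cannot reach an exact p below 0.1.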
